A study of Rattus norvegicus with 23 samples.

Results

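The TNF superfamily was described in the lungs of elderly rats that had inhaled titanium dioxide (TiO2). Members were every gene of the array named Tnf, Tnfsf or Tnfrsf with a number, together with Lta, Ltb, Ltbr, Fas, Faslg, Cd40lg, Cd70, Eda and Ngfr, which belong to the family under older names. The rule used names only, but it was set with earlier results of these data known. It gave 40 genes, 18 ligands and 22 receptors, on 50 probes. Of these, 38 members passed the filter on dim probes and were tested among 23048 genes. Male F344 rats aged 19 months breathed filtered air (control) or a TiO2 aerosol of the P25 grade at 10 mg/m3 (exposed) through the nose only, for 6 h per day on 5 days per week for 4 weeks. The accessory lung lobe was taken right after the last exposure (D0) or 28 days later (D28), and the RNA of each rat was hybridised to 1 one-color Agilent array. There were 6 control and 5 exposed arrays at D0, and 6 control and 6 exposed arrays at D28. The source label of the 6 exposed D28 arrays reads day 0 while their titles and descriptions read day 28, and the latter were followed.

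Ligands of this family are trimers, mostly anchored in the membrane of immune cells, and each binds 1 or a few receptors. Receptors with a death domain (the first TNF receptor, Fas, the TRAIL receptor) can lead to cell death, and others recruit TRAF adaptors and activate NF-kB. TNF is an early cytokine of macrophages that meet particles or microbes. Several pairs of the family are costimulators of T cells or survival factors of B cells, and decoy receptors such as osteoprotegerin bind ligands without signalling.

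The lobe is a mixed tissue, so that fewer cells of a type and less RNA per cell cannot be told apart. All 6 markers of type II pneumocytes on the marker list were well above background on all 23 arrays. The share of spots well above background ran from 69.5% to 77.9% per array. Array values below are log2 of the quantile-normalized processed signal. A difference is an exposed-minus-control difference on that scale (a log2 fold change, FC), with its standard error (SE) or its 95% interval from limma. A member is said to have risen or fallen where its p, adjusted over all 23048 genes by Benjamini and Hochberg, was under 0.05. Levels of different genes come from different probes and were not compared.

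On D0, 1 of 38 members rose, against 1.51% of all genes, and 1 fell, against 1.34% of all genes. On D28, 0 members rose, against 0.781% of all genes, and 0 fell, against 0.534%. Without adjustment, 10 members on D0 and 7 on D28 had p under 0.05, which is 26.3% and 18.4% of the members. Over all 23048 genes, 2750 and 2534 did. The member counts include Cd40lg on D0, well above background on 1 array, and Cd70 on D28, so on no array. Of the 33 members well above background on at least 12 arrays, 9 had such a p on D0 and 6 on D28. In the mean of both days' effects, 4 of 38 members rose (10.5%, against 3.05% of all genes) and 2 fell (5.26%, against 3.5% of all genes). The members that rose were Tnf, Tnfsf9, Tnfrsf12a and Tnfrsf4, and those that fell were Tnfrsf11b and Tnfsf10. The exposed arrays lay wholly outside the range of the controls for 5 members on D0 (13.2%, against 4.31% of all genes) and for 1 on D28 (2.63%, against 1.22%). With slide as a fixed term, which leaves the 1 array alone on its slide without weight, 7 members passed on D0 (Tnf, Tnfsf9, Tnfsf13, Tnfrsf4, Tnfrsf12a, Tnfrsf22 and Tnfrsf11b), 1 on D28 (Tnfsf9) and 9 in the mean. In that fit the calls over all 23048 genes also grew, from 655 to 1235 on D0, from 303 to 633 on D28 and from 1509 to 2397 in the mean. The median difference of the 38 members was 0.07 on D0 and 0.15 on D28, with medians of 0.00 and -0.01 over all genes.

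**Figure D1:**
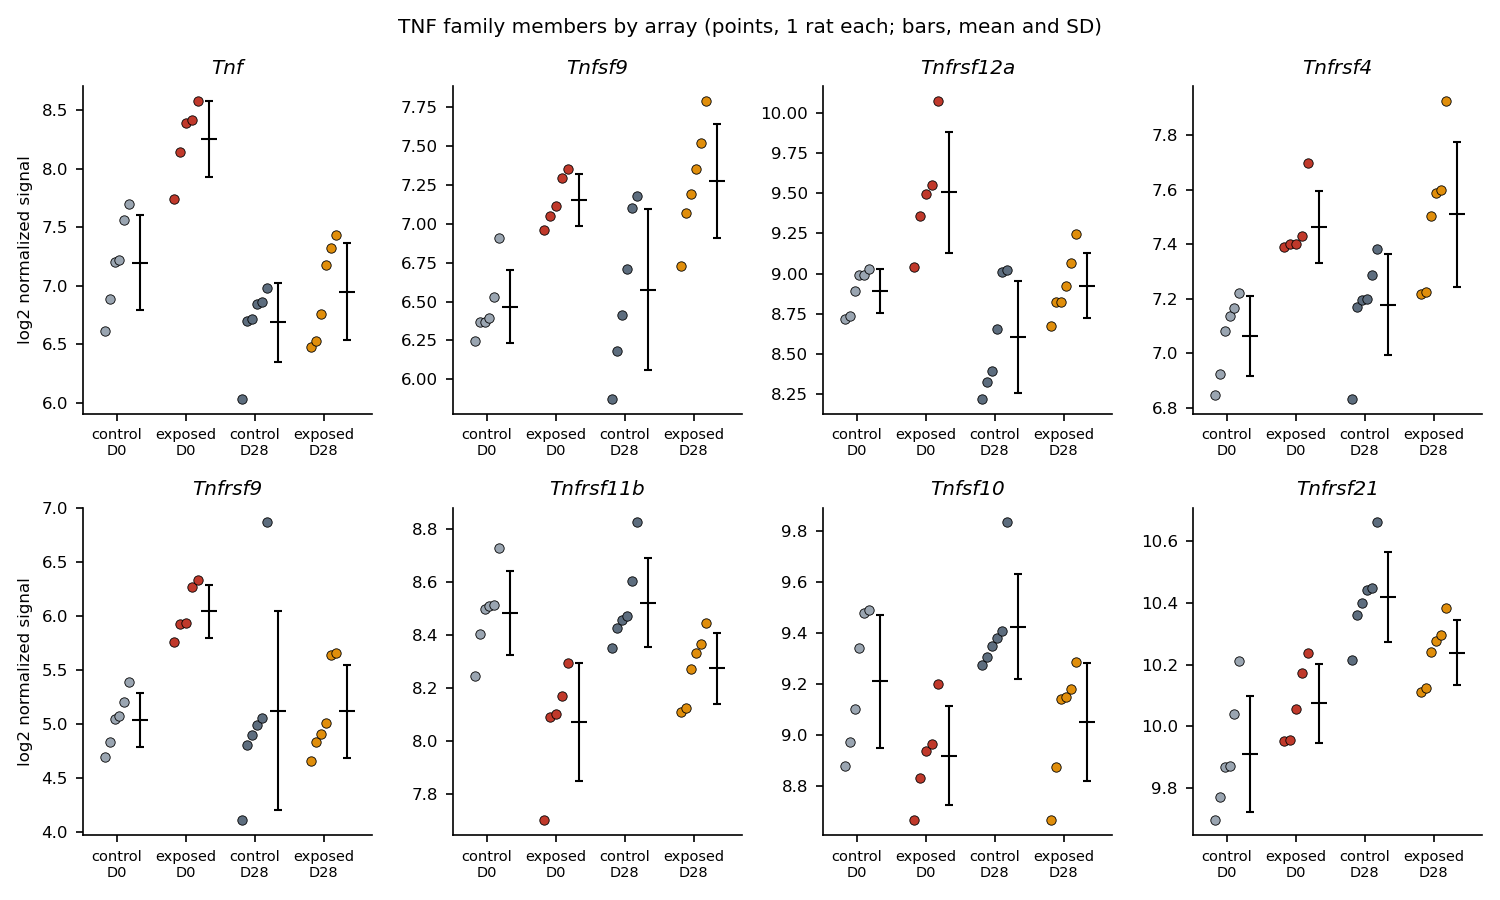
Log2 normalized signal (vertical axis, a separate scale per gene) of 8 members on each array, in 4 groups (horizontal axis). Each point is 1 rat and the bars give the mean and SD. At D0 all 5 exposed arrays lie above all 6 controls for Tnf, Tnfsf9, Tnfrsf12a, Tnfrsf4 and Tnfrsf9, and at D28 the groups overlap for all 8 members.

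The promoters of the members that rose are shown because these genes moved the same way in the exposed rats. Of the 4, Tnf, Tnfrsf12a and Tnfrsf4 have an entry in the RefSeq promoter table (build GRCr8), as 30 of the 40 members do. The 250 bases before the annotated start are given 5′ to 3′ on the strand of the gene, with TATAAA in capitals. Tnf lies on the plus strand (chr20:3626435-3626684), Tnfrsf12a on the minus strand (chr10:13213649-13213898) and Tnfrsf4 on the plus strand (chr5:171888884-171889133).
Tnf: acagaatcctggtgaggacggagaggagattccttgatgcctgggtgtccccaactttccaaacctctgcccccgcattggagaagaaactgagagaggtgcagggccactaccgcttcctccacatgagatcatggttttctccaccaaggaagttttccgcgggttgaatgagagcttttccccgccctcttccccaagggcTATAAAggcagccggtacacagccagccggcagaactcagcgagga
Tnfrsf12a: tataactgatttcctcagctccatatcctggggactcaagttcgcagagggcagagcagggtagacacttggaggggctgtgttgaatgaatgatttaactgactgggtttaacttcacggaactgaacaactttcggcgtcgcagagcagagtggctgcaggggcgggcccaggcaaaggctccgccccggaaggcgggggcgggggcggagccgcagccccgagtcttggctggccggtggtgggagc
Tnfrsf4: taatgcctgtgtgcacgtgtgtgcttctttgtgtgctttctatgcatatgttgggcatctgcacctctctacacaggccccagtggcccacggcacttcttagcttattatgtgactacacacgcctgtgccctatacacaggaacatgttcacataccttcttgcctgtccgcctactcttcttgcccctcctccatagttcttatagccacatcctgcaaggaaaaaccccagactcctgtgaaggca
TATAAA begins 46 bases before the start of Tnf, and neither of the other windows holds it on either strand. It was found in 12.9% of the 33469 promoters of the table. The consensus sites of NF-kB (searched by its usual degenerate consensus) and AP-1 (TGANTCA), on both strands, are in none of these 3 windows. The NF-kB consensus was found in 3.54% of all promoters and in 4 of the 30 members with an entry, Lta, Ltb, Tnfrsf8 and Tnfsf14. AP-1 was found in 6.34% of all promoters and in 3 of those 30 members, Fas, Tnfrsf1b and Tnfrsf8. These are matches of letters within a short window and say nothing of binding.

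Among the ligands of inflammation and cell death, Tnf rose on D0. Its 5 exposed arrays read 7.74, 8.15, 8.39, 8.42 and 8.58, and the 6 control arrays ran from 6.61 to 7.70 with a median of 7.21. All 5 exposed arrays were above all controls. The difference was 1.06 (SE 0.22, 95% interval 0.60 to 1.52, adjusted p = 0.0089), a FC of 2.08. At D28 the controls ran from 6.03 to 6.98 (median 6.78) and the exposed arrays from 6.48 to 7.44 (median 6.96). Of the 6 exposed arrays, 3 were above all controls and 3 lay within their range. The D28 difference was 0.26 (95% interval -0.18 to 0.70, adjusted p = 0.74). The D28 difference minus the D0 difference was -0.80 (95% interval -1.43 to -0.16), which did not pass the test over all genes (adjusted p = 1.00).

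Tnf was read by 2 probes of very different brightness. The bright probe, A_64_P034414, was well above background on all 23 arrays. On D0 it read from 10.02 to 10.53 in the controls and 10.83, 11.16, 11.35, 11.47 and 11.74 in the exposed rats, again without overlap. The dim probe, A_43_P11513, was well above background on 3 of 6 control and 4 of 5 exposed arrays at D0, and on 1 of 6 arrays in each group at D28. The D0 differences of the probes were 1.02 (SE 0.20) and 1.09 (SE 0.36), and those of D28 were 0.33 (SE 0.19) and 0.19 (SE 0.34). Within slides, the glass carriers that hold several arrays, the D0 difference of Tnf was 0.86, 0.70, 0.90 and 1.78 on the 4 slides with both groups.

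Tnfsf10 encodes TRAIL, a ligand of death receptors. Its 5 exposed D0 arrays read 8.66, 8.83, 8.93, 8.96 and 9.20, and the controls ran from 8.88 to 9.49 (median 9.22). The groups overlapped, with 2 exposed arrays below all controls. At D28 the controls ran from 9.27 to 9.83 (median 9.36) and the exposed from 8.66 to 9.29 (median 9.14), and 5 of 6 exposed arrays were below all controls. The differences were -0.29 (SE 0.14, adjusted p = 0.41) on D0 and -0.37 (SE 0.13, adjusted p = 0.22) on D28. The mean of both days fell by 0.33 on the log2 scale (95% interval -0.53 to -0.13, adjusted p = 0.039). Its 2 probes, both well above background on all arrays, had the same sign but differed in size. They gave -0.11 (SE 0.23) and -0.47 (SE 0.09) on D0, -0.54 (SE 0.22) and -0.21 (SE 0.09) on D28, and -0.33 (SE 0.16) and -0.34 (SE 0.06) in the mean of both days. The call of Tnfsf10 in the mean was lost when any of 11 arrays was left out, with adjusted p up to 0.082. It was also lost with replicate number as a fixed term (adjusted p = 0.054). Within slides, the difference was below 0 on 3 of 4 slides at D0 and on 3 of 3 at D28.

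The other 6 ligands of this class did not pass the test on either day. Tnfsf12 (TWEAK) had the one D28 separation of the family. Its exposed D28 arrays ran from 13.71 to 13.83 and its controls from 13.50 to 13.70, a difference of 0.13 (95% interval -0.01 to 0.26, adjusted p = 0.52). Tnfsf14 (LIGHT) gave the largest other difference on D0, -0.51 (95% interval -1.07 to 0.05, adjusted p = 0.51), and 0.22 on D28. Faslg, the ligand of Fas, gave the largest other on D28, -0.33 (95% interval -0.80 to 0.15, adjusted p = 0.68). Lta and Ltb, the lymphotoxins, gave -0.04 and 0.24 on D0, and -0.08 and 0.19 on D28.

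Among the ligands of T cell costimulation, Tnfsf9 (CD137 ligand, made by antigen-presenting cells) was higher on both days by about the same amount. Its D0 controls ran from 6.25 to 6.91 (median 6.38), and the exposed arrays read 6.96, 7.05, 7.11, 7.29 and 7.35. The groups did not overlap, although the highest control and the lowest exposed array were close. At D28 the controls were wider, from 5.88 to 7.18 (median 6.56), and the exposed arrays ran from 6.73 to 7.79 (median 7.27), with 4 of 6 above all controls. The differences were 0.68 (SE 0.21, adjusted p = 0.090) on D0 and 0.70 (SE 0.20, adjusted p = 0.098) on D28, and neither day passed alone, although Tnfsf9 passed on D28 without control D28 replicate 4. In the mean of both days Tnfsf9 rose by 0.69 (95% interval 0.39 to 0.99, adjusted p = 0.0045), a FC of 1.61. The exposed arrays were higher on all 4 slides at D0 (0.40 to 0.98) and on all 3 at D28 (0.75 to 0.93).

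The other costimulatory ligands were mostly too dim to read. Tnfsf4 (OX40 ligand) did not pass the filter, Cd70 and Tnfsf18 (GITR ligand) were not well above background on any array, and Cd40lg was so on 1 array, a D0 control. No fold change is given for these. Tnfsf8 (CD30 ligand) was measured and gave 0.00 on D0, where its probes differed in sign, and 0.17 on D28 (95% interval -0.18 to 0.53).

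The receptor of the CD137 ligand, Tnfrsf9 (CD137), was higher in the exposed rats at D0. The exposed arrays read 5.76, 5.93, 5.94, 6.27 and 6.33 and the controls ran from 4.69 to 5.39 (median 5.06). No exposed array overlapped the controls, but the difference of 1.00 (95% interval 0.34 to 1.67) missed the threshold (adjusted p = 0.11). At D28 the exposed arrays ran from 4.66 to 5.66 (median 4.96), and the controls from 4.11 to 6.87 (median 4.95). The highest control, replicate 6, stood far above the next control at 5.05. The D28 difference was -0.0045 with that array and 0.35 without it. With it left out, Tnfrsf9 passed on D0 and in the mean of both days. That array was picked out by its own Tnfrsf9 value and is in neither D0 group. It enters the D0 test through the normalization and the spread, which all 4 groups share.

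**Figure D2:**
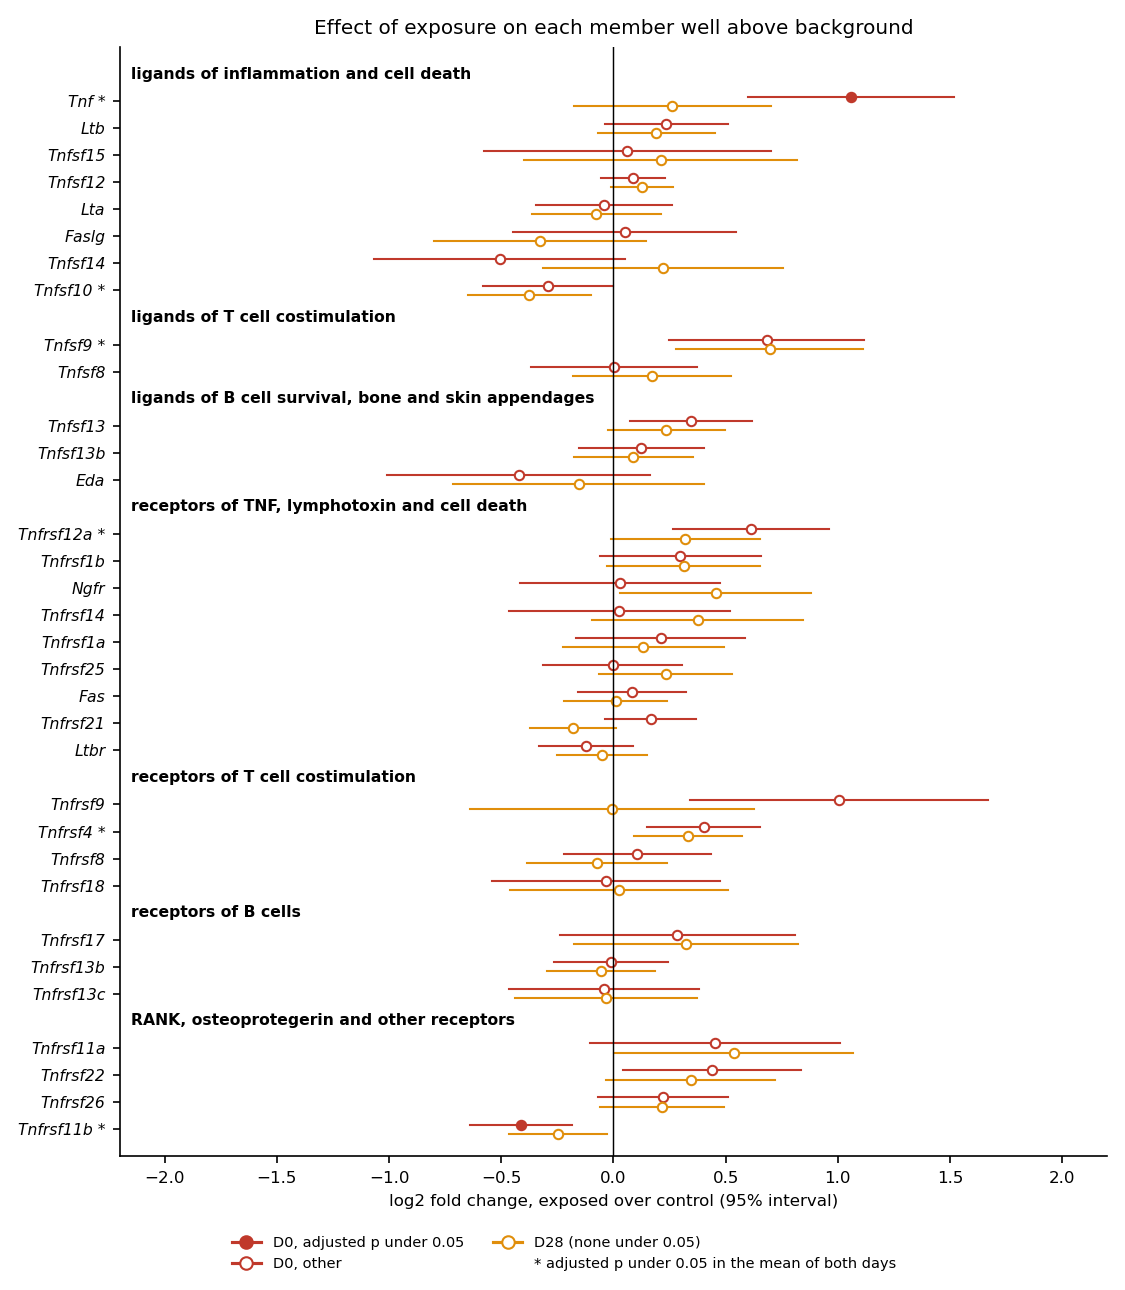
Log2 fold change, exposed over control, on D0 (red) and D28 (orange) for the 33 members well above background on at least 12 arrays, grouped by role (vertical axis), with 95% intervals. Filled points passed the test on that day and asterisks mark members that passed in the mean of both days. Tnf and Tnfrsf11b are the only filled points.

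Tnfrsf4 (OX40, a costimulatory receptor of activated T cells) was the receptor of this class that rose. Its exposed D0 arrays read 7.39, 7.40, 7.40, 7.43 and 7.70, above all controls, which ran from 6.85 to 7.22 (median 7.11). At D28 the controls ran from 6.83 to 7.38 (median 7.20) and the exposed arrays from 7.22 to 7.93 (median 7.55), with 4 of 6 above all controls. The differences were 0.40 (SE 0.12, adjusted p = 0.083) on D0 and 0.33 (SE 0.12, adjusted p = 0.20) on D28. In the mean of both days Tnfrsf4 rose by 0.37 (95% interval 0.19 to 0.54, adjusted p = 0.0082), a FC of 1.29. It was higher on all 4 slides at D0 and on all 3 at D28. The mean level of the 9 T cell markers overlapped between groups on both days, from 7.35 to 7.71 in the controls and from 7.22 to 7.94 in the exposed rats at D0, and from 7.05 to 7.58 and from 6.92 to 7.72 at D28. Of the 9, 5 were higher in the exposed rats on D0, 8 on D28 and 7 in the mean. None of the 9 passed the test on either day or in the mean of both. The part of T cells in the rise of Tnfrsf4 was not tested. Tnfrsf8 (CD30) and Tnfrsf18 (GITR) did not pass, with differences between -0.07 and 0.11 on both days.

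Among the receptors of TNF, lymphotoxin and cell death, Tnfrsf12a (Fn14, the receptor of TWEAK, known to be induced in injured tissue) rose in the mean of both days. Its exposed D0 arrays read 9.04, 9.36, 9.50, 9.55 and 10.07, and the controls ran from 8.72 to 9.03 (median 8.94). All exposed arrays were above all controls, the lowest of them only just. At D28 the controls ran from 8.22 to 9.02 (median 8.53) and the exposed from 8.67 to 9.25 (median 8.87), with 2 of 6 above all controls. The D0 difference of 0.61 (SE 0.17, 95% interval 0.26 to 0.96) lay at the threshold (adjusted p = 0.0503), and the D28 difference was 0.32 (SE 0.16, adjusted p = 0.49). The mean of both days was 0.47 (95% interval 0.23 to 0.71, adjusted p = 0.015), a FC of 1.38. The probe of Tnfrsf12a is printed 10 times on each array. The SD among these spots was 0.03 to 0.12, with a median of 0.07, while the SD among rats of a group was 0.14 to 0.37. Within slides, the D0 difference ran from 0.05 to 1.11 and was above 0 on all 4, and at D28 it ran from 0.07 to 0.47 on 3 slides.

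The receptors of TNF itself were measured on all arrays and did not pass on either day. Tnfrsf1a (the first TNF receptor, with a death domain) gave 0.21 on D0 (95% interval -0.16 to 0.59) and 0.13 on D28. Tnfrsf1b (the second, found mainly on leukocytes) gave 0.30 on D0 (95% interval -0.06 to 0.66) and 0.31 on D28 (95% interval -0.03 to 0.66). Fas was read by 2 probes that differed in sign on both days, 0.31 and -0.14 on D0, and no direction is given for it. Ngfr, the low-affinity neurotrophin receptor, gave the largest other D28 difference of its class, 0.45 (95% interval 0.03 to 0.88, adjusted p = 0.40), and 0.03 on D0. Tnfrsf10b, a TRAIL receptor, was well above background on 1 array and is not compared. Ltbr, the lymphotoxin receptor, gave -0.12 and -0.05.

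Tnfrsf21 (death receptor 6) did not pass for exposure, with 0.17 on D0 and -0.18 on D28, but changed in the controls. The D0 controls ran from 9.70 to 10.21 (median 9.87) and the D28 controls from 10.21 to 10.66 (median 10.42). Both groups met at 10.21, and every D28 control was above every D0 control. The D28 controls were higher by 0.51 (95% interval 0.32 to 0.70, adjusted p = 0.0060), a FC of 1.43, but the call was lost in a fit of only the control arrays (adjusted p = 0.068). This was the 1 member of 38 that rose between the control groups, against 0.573% of all genes, and 0 fell, against 0.304%. The mean level of the 5 markers of fibroblasts and smooth muscle also differed between the control groups, from 10.45 to 10.87 at D0 and from 10.92 to 11.47 at D28, and its part in this result was not tested. Tnfrsf21 was higher at D28 on the 3 slides that hold both groups (0.19, 0.73 and 0.35). D0 and D28 controls differ in their age at necropsy as well as in time since the sham exposure, which cannot be told apart.

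Tnfrsf11b encodes osteoprotegerin, the soluble decoy receptor of RANK ligand that also binds TRAIL, and was the member that fell on D0. Its exposed arrays read 7.70, 8.09, 8.10, 8.17 and 8.30, and the controls ran from 8.24 to 8.73 (median 8.50). Of the 5 exposed arrays, 4 were below all controls. At D28 the controls ran from 8.35 to 8.82 (median 8.46) and the exposed arrays from 8.11 to 8.44 (median 8.30), with 4 of 6 below all controls. The difference was -0.41 (SE 0.11, 95% interval -0.64 to -0.18, adjusted p = 0.045) on D0 and -0.25 (SE 0.10, adjusted p = 0.35) on D28, and the mean of both days was -0.33 (95% interval -0.49 to -0.17, adjusted p = 0.0088). The D0 call was lost when any of 14 arrays was left out (adjusted p up to 0.15) and in a fit of the D0 arrays alone (adjusted p = 0.10), and the call in the mean held in all 23. It was lower on all 4 slides at D0 and on 2 of 3 at D28, where the third gave 0.02.

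Tnfrsf11a (RANK) gave 0.45 on D0 (95% interval -0.10 to 1.01) and 0.54 on D28 (95% interval 0.00 to 1.07, adjusted p = 0.45), and its ligand Tnfsf11 was well above background on 1 array. Tnfrsf22, a decoy receptor of TRAIL in rodents, and its relative Tnfrsf26 gave 0.44 and 0.22 on D0 and 0.34 and 0.22 on D28. Among the B cell genes, Tnfsf13 (APRIL) gave 0.35 on D0 (adjusted p = 0.22) and 0.23 on D28. Its mean of 0.29 had an adjusted p of 0.061. Tnfsf13b (BAFF) gave 0.12 and 0.09. Tnfrsf17 (BCMA, the receptor of plasma cells) gave the largest differences of its class, 0.28 on D0 and 0.32 on D28 (95% interval -0.17 to 0.82). Eda, a ligand of skin appendages, gave -0.42 on D0 (95% interval -1.01 to 0.16), but its 2 probes differed. The probe that was well above background on all arrays gave -0.08 (SE 0.24) on D0 and -0.51 (SE 0.23) on D28, and the one that was so on only part of the arrays gave -0.76 (SE 0.54) and 0.20 (SE 0.51). No direction is given for Eda. The difference between days passed for none of the 38 members, against 0.0304% of all genes. Without adjustment, 3 members (Tnf, Tnfrsf21 and Tnfrsf9) had p under 0.05, which is 7.89%, against 3.44% of all genes.

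**Figure D3:**
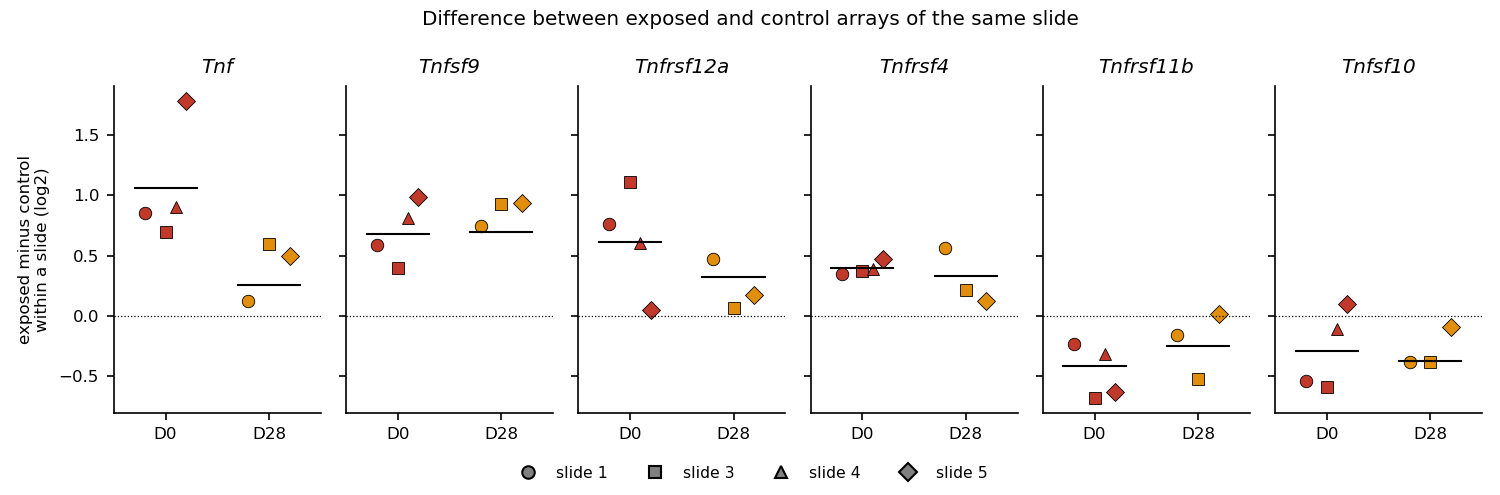
Exposed minus control difference (log2, vertical axis) within each slide that holds both groups, on D0 and D28, for the 6 members that rose or fell in the mean of both days. Symbols mark slides and the bar is the difference over all arrays. Tnf, Tnfsf9, Tnfrsf12a and Tnfrsf4 lie above 0 on all slides of both days.

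Beside the family, 2 lists were read, 23 genes known to be induced by TNF and 46 genes of receptor signalling. The part of the family in the differences of these genes was not tested. Of the 23 induced genes, 3 rose on D0 (against 1.51% of all genes), 1 on D28 (against 0.781%) and 4 in the mean of both days (against 3.05%), and 0 fell. Their median difference was 0.14 on D0 and 0.16 on D28. Tnfaip2 gave 1.10 (SE 0.18, adjusted p = 0.00099) on D0 and 0.63 on D28. Ccl2, the monocyte chemokine, gave 1.46 (SE 0.29, adjusted p = 0.0066) and 0.92. Sele (E-selectin of activated endothelium) gave 1.23 (SE 0.30, adjusted p = 0.025) and 0.38. Cxcl2, a neutrophil chemokine, gave 1.17 and 0.75 and rose in the mean of both days (0.96, adjusted p = 0.013). Csf2 rose on D28 (0.47, adjusted p = 0.033) and gave 0.01 on D0.

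Of the 45 signalling genes tested, 1 rose on D0, 0 on D28 and 4 in the mean of both days, and 0 fell, against 1.51%, 0.781% and 3.05% of all genes that rose. Their median difference was 0.08 on D0 and 0.10 on D28. Bcl3 gave 0.65 (SE 0.14, adjusted p = 0.0096) on D0 and 0.51 in the mean (adjusted p = 0.0019). Nfkbie (0.43, adjusted p = 0.020), Birc3 (an inhibitor of apoptosis, 0.42, adjusted p = 0.010) and Ripk3 (the kinase of necroptosis, 0.39, adjusted p = 0.012) rose in the mean. Bcl3 and Nfkbie were on the list of NF-kB subunits and inhibitors (2 of 9 rose in the mean), and Birc3 and Ripk3 on that of adaptors and the caspase arm (2 of 16). Of the 7 ubiquitin editing genes, the 9 genes on the list of kinases, which did not include Ripk3, and the 4 shedding genes, 0 passed on either day or in the mean. Of the 5 family receptors outside the naming rule (Cd40, Cd27, Edar, Eda2r and Relt), none passed on either day or in the mean.

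**Figure D4:**
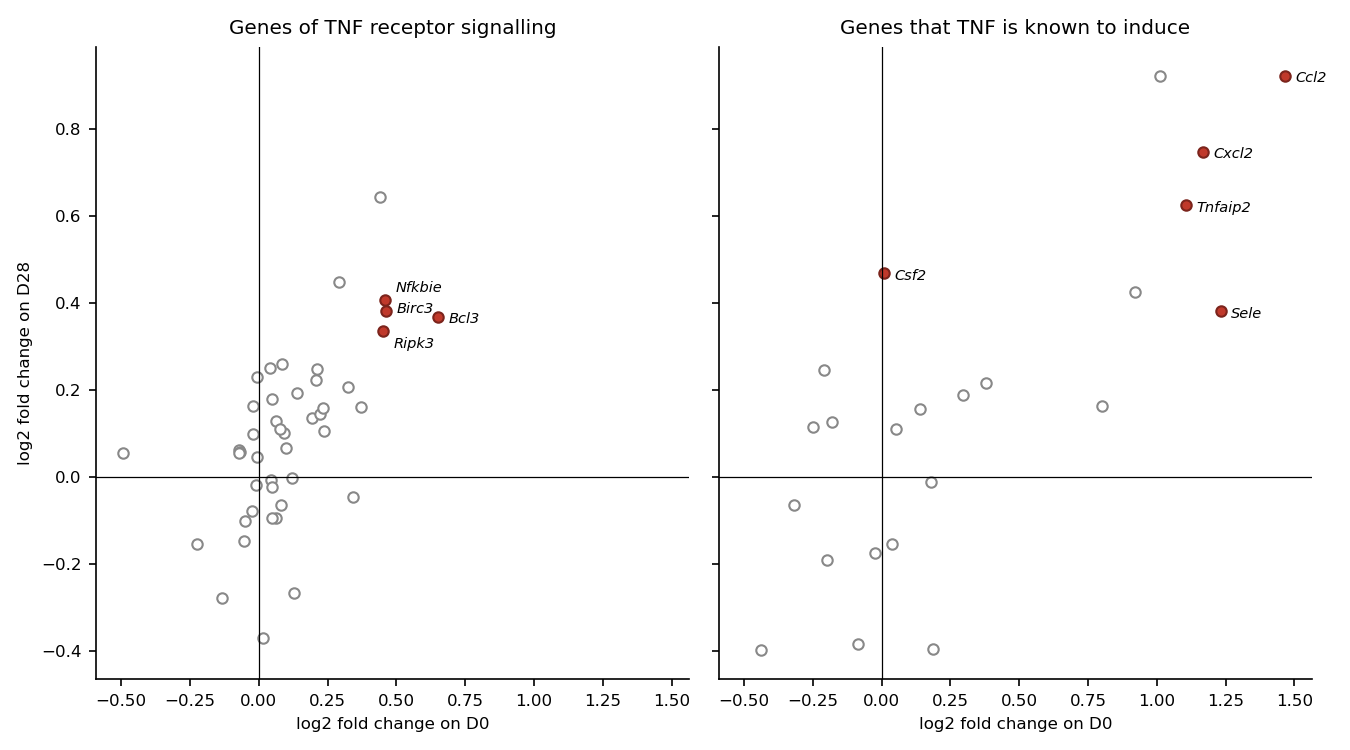
Log2 fold change on D0 (horizontal axis) against D28 (vertical axis) of the genes of TNF receptor signalling (left) and of the genes known to be induced by TNF (right). Red named genes passed on D0, on D28 or in the mean of both days. All named genes lie above 0 on D28, and all but Csf2 lie well above 0 on D0.

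Markers of macrophages and of type II pneumocytes were mostly higher in the exposed rats. The mean level of 7 markers of monocytes and recruited macrophages ran from 9.79 to 10.21 in D0 controls and from 10.48 to 10.87 in the exposed rats, and from 9.44 to 10.26 and from 10.46 to 10.74 at D28. These ranges did not overlap on either day, and Itgam and Spp1 rose on both days. Of the 7 alveolar macrophage markers tested, 2 rose on D0 and 1 on D28, with mean levels of 8.66 to 9.05 against 9.21 to 9.59 on D0 and 8.59 to 9.18 against 8.91 to 9.16 on D28, and Marco was well above background on 2 arrays. The mean level of the 6 type II pneumocyte markers ran from 14.85 to 15.00 in controls and from 15.06 to 15.24 in exposed rats at D0, without overlap, and from 14.92 to 15.22 and from 15.04 to 15.38 at D28. Sftpd rose on D0, and Sftpd and Sftpa1 in the mean of both days. Of the 9 neutrophil markers tested, 0 rose on either day and Ngp fell in the mean of both days. Ngp was well above background on 4 of 6 control and 0 of 5 exposed arrays at D0, and on 5 of 6 and 1 of 6 at D28. Its exposed values thus lie near background. Mpo was well above background on 6 arrays, and Elane and Ltf were not on any array. Markers of endothelium, type I pneumocytes, airway epithelium and natural killer (NK) cells were lower in the exposed rats on both days. Of the 5 NK cell markers, 0 passed on either day or in the mean. Their median difference was -0.22 on D0 and -0.35 on D28, and their mean levels overlapped between groups. The mean level of the 4 endothelial markers ran from 12.16 to 12.33 in controls and from 11.83 to 12.10 in exposed rats at D0, and from 12.11 to 12.50 and from 11.93 to 12.34 at D28. That of the 4 type I markers ran from 11.26 to 11.41 and from 10.84 to 11.17 at D0, and from 11.07 to 11.61 and from 11.07 to 11.27 at D28. That of the 3 airway markers ran from 13.95 to 14.19 and from 13.61 to 14.07 at D0, and from 13.87 to 14.31 and from 13.72 to 14.01 at D28. Aqp5 fell on D0, and Aqp5, Pdpn, Cdh5 and Tppp3 fell in the mean of both days. The part of these cells in the differences of the family was not tested.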

How the data were processed

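The authors deposited 1 scanner table per array, with intensity values from Agilent Feature Extraction (per the file headers release 11.0.1.1, except 12.0.1.1 for control D28 replicate 4), and a table of quantile-normalized intensity over all arrays. RNA of each rat was labelled in one color. From the processed signal, flagged outlier spots were left out, and probes were kept where the signal exceeded the 95th percentile of 308 negative control spots on at least 5 arrays (40407 of 45598 probes). Values were log2 transformed and quantile normalized, spots of a probe and probes of a gene were averaged, and 23048 genes were tested with limma 3.58.1 (R 4.3.3) in a model of 4 group means over 23 arrays, with 19 residual degrees of freedom. Benjamini-Hochberg adjustment ran over all genes. The number of arrays limits the precision.

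The contrasts were exposure on D0, exposure on D28, their mean, their difference, and control D28 against control D0. Each p measures the spread between rats, 1 array each. The methods of the study name a batch correction without its details, and none was applied in the main model. The tests were checked on simulated data. The members and gene lists were chosen with earlier results of these data known. Members are named in full where they passed a contrast or separated from the controls on a day. Of the rest, the member with the largest difference of its role on each day is named, among those well above background on at least 1 array. Of the pathway lists, the rule names at most 3 genes per list that passed, those with the largest difference on D0 or D28. The further members and pathway genes named were chosen after their values were seen. No fold change is given for members well above background on at most 1 array. Alternatives were other scalings, filters, probe rules, blocks, weights, thresholds and the omission of each array. The study names 6 rats per group at each time point, while 5 exposed D0 arrays were available here. Promoter sequences are those of RefSeq on GRCr8.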

Additional observations from a re-analysis of the deposited data

Results flagged for a closer look

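Over the groups of arrays of each named member (80 in all), 5 arrays stood apart from the rest of their group by Dixon's test, and chance flags about 5% of groups. In the controls of D28, replicate 6 was the lowest for Tnf (6.03) and the highest for Tnfrsf9 (6.87), and replicate 2 was the highest for Tnfsf10 (9.83). In the exposed rats of D0, replicate 3 was the highest for Tnfrsf4 (7.70) and replicate 4 the highest for Eda (5.84). Without control D28 replicate 6, the D28 difference of Tnfrsf9 moved from -0.0045 to 0.35.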

How the results depend on the processing

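The 4 members that rose in the mean of both days, and Tnfrsf11b, passed in that mean under the 11 other scalings, filters, probe rules, blocks and weights and with each of the 23 arrays left out, while a fold change limit of 1.5 left only Tnf and Tnfsf9. Tnf also passed on D0 in all of these and in a fit of the D0 arrays alone. The number of members that passed on D0 was 2, and became 4 with normexp, 4 with the stricter filter (all arrays of at least 1 group well above background), 4 with the brightest probe of each gene, 7 with slide as a block, 6 with array quality weights, 10 without adjustment and 1 with a fold change limit of 1.5. Replicate numbers did not pair the rats (correlations of same-numbered deviations from -0.30 to 0.46, and 7 of 23 arrays were closest to their own number), and the replicate block gave 1 member on D0, 0 on D28, 5 in the mean, 0 in the difference and 1 between the controls. On D28 the count was 0, and 1 with normexp, 1 with slide as a block and 7 without adjustment. In the mean it was 6, and 2 with the fold change limit. Without adjustment it was 15 in the mean (39.5%, against 17.2% of all genes). Of the 33 members well above background on at least 12 arrays, 14 had such a p in the mean, 9 on D0 and 6 on D28. In the difference between days it was 0, and 3 without adjustment (7.89%, against 3.44% of all genes). Between the controls it was 1, and 0 with only the control arrays and 0 with the fold change limit. Without adjustment it was 4 between the controls (10.5%, against 13.3% of all genes), and 3 among the 33 members. With 1 array left out, the counts ran from 1 to 3 on D0, from 0 to 1 on D28, from 5 to 7 in the mean, and stayed at 0 and 1 in the others. The D0 call of Tnfrsf11b was lost in the fit of the D0 arrays alone (adjusted p = 0.10), with the replicate block (adjusted p = 0.068) and without control D0 replicates 1, 2, 3, 4 and 6, exposed D0 replicates 1, 3, 4 and 5, control D28 replicates 2 and 5, and exposed D28 replicates 1, 3 and 6. The call of Tnfsf10 in the mean was lost with the replicate block (adjusted p = 0.054). It was also lost without control D0 replicates 1, 2 and 5, exposed D0 replicates 1, 2, 4 and 5, control D28 replicates 2 and 5, and exposed D28 replicates 1 and 5. Some differences that passed in no setting, mostly near 0, changed sign. Faslg on D0 became -0.16 with the brightest probe and -0.062 with array weights, and Tnfsf8 on D0 became -0.0069 with cyclic loess, -0.021 in the deposited table, -0.042 with the replicate block and -0.031 with array weights. Tnfrsf9 on D28 became 0.016 with 75th percentile scaling, 0.044 with cyclic loess, 0.0069 with the stricter filter and 0.079 with array weights. With slide as a block, Tnfsf14 on D28 went from 0.22 to -0.029, Tnfrsf8 in the mean became -0.034 and Tnfrsf21 in the mean 8.65e-05. With 1 array left out, Faslg on D0 ran from -0.11 to 0.21, Tnfsf8 on D0 from -0.12 to 0.12, Ngfr on D0 from -0.11 to 0.11, Tnfrsf9 on D28 from -0.21 to 0.35, Tnfrsf8 on D28 from -0.15 to 0.025 and in the mean from -0.024 to 0.070, and Tnfrsf21 in the mean from -0.030 to 0.022. The cause of these changes was not tested. The 7 members well above background on at most 1 array are too dim to be read. Over all genes, 655 passed on D0, and 1235 with slide as a block and 1372 with array weights. The D0 count was 900 with normexp, 977 with the stricter filter and 801 with the brightest probe. On D28, 303 passed, and 633 with slide as a block, 429 with normexp, 477 with the stricter filter and 43 with the D28 arrays alone. In the mean, 1509 passed, and 2397 with slide as a block.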
